A study of Mus musculus with 21 samples.

Results

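The genes described here are the 6 core genes of the spindle assembly checkpoint, *Ttk*, *Bub1*, *Bub1b*, *Bub3*, *Mad1l1* and *Mad2l1*. They were picked by symbol from a table of 54232 mouse genes, of which 54079 had a symbol. All 6 were matched, and each had counts in every one of the 21 libraries. Their RNA levels were compared between full-grown mouse oocytes that carried different alleles of *Kif11*, the gene of a kinesin motor that pushes spindle poles apart, and different Cre drivers.

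The checkpoint is a surveillance pathway that delays anaphase while kinetochores lack proper microtubule attachment. TTK (MPS1) kinase starts the signal at unattached kinetochores, BUB1 and MAD1 build on it there, and MAD2, BUBR1, BUB3 and CDC20 join in a mitotic checkpoint complex that holds back the anaphase-promoting complex (APC/C). Oocytes are known for large stores of maternal mRNA whose translation is regulated as meiosis proceeds, so an RNA level is not a measure of the protein.

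Each library held the poly(A) RNA of 3 oocytes at the germinal vesicle stage, before meiotic resumption. Per the study's methods, the oocytes came from females of 3 to 4 months, 48 h after an injection of eCG or HyperOva to stimulate follicles, and each mouse gave 1 or 2 libraries. The methods count 17 libraries and do not describe the 4 fl/fl ones apart, so the age and injection are not stated for these, while the labels give the same collection and library protocol for all 21. The labels do not say which libraries share a mouse, but 8 pairs of libraries share a name prefix, which may mark a mouse. A group may therefore hold fewer mice than libraries. The p-values below measure the spread between libraries, part of which may be technical, and treat libraries as independent, which those of 1 mouse may not be. Each level is a share of a library of 3 oocytes. The amount of RNA per oocyte and differences between single oocytes cannot be read from it.

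The control was *Kif11* wt/fl without Cre (4 libraries), with a wild-type and a floxed allele. The wt/fl Spo11-Cre oocytes (5 libraries) had this genotype and a Cre that acts from early meiotic prophase and deletes the floxed allele. The Cre and the loss of that allele cannot be told apart in comparisons of groups with and without Spo11-Cre. The fl/del oocytes (4 libraries) had a floxed allele and a constitutively deleted allele without Cre, and fl/del Spo11-Cre oocytes (4 libraries) had both alleles and the Cre. The last groups, fl/fl Gdf9-Cre (2 libraries) and fl/fl Zp3-Cre (2 libraries), had floxed alleles only, with a Cre under a promoter active in oocytes of the follicle. All groups carried at least 1 floxed allele, and no fl/fl group without Cre was among the samples.

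Total counts were between 7205010 and 18454549 per library, and between 7801470 and 10759741 in the fl/fl libraries. *Kif11* over all exons had a mean of 34.5 CPM (counts divided by the sum of their library and put on a common scale) in wt/fl oocytes. With Spo11-Cre on wt/fl this mean was 24.6, in fl/del oocytes 11.9 and in fl/del Spo11-Cre 1.78 CPM, and the fl/fl libraries had between 4.27 and 7.95 CPM. The 12 oocyte markers, such as *Zp3* and *Gdf9*, summed to between 26213 and 35054 CPM. The 18 follicle cell markers summed to between 73.6 and 128 CPM, with the largest parts from *Cyp19a1* and *Nr5a2*, while *Foxl2*, *Ptx3* and *Tnfaip6* were at 0 in every library. The 6 blood markers summed to at most 0.451 CPM.

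The genes lie on 5 chromosomes of GRCm38. *Bub1b* (ENSMUSG00000040084, chr2:118598211-118641591, plus strand) and *Bub1* (ENSMUSG00000027379, chr2:127801122-127831865, minus strand) are on the same chromosome, 9159531 bp apart. *Mad1l1* (ENSMUSG00000029554) is at chr5:140008689-140321552 on the minus strand and *Mad2l1* (ENSMUSG00000029910) at chr6:66535390-66547220 on the plus strand. *Bub3* (ENSMUSG00000066979) is at chr7:131560222-131571895 and *Ttk* (ENSMUSG00000038379) at chr9:83834689-83872389, both on the plus strand. *Bub3* lies within the span of *Fgfr2* without sharing an exon. *Mad1l1* overlaps 5 annotated genes and shares exonic sequence with *Gm16121*, whose reads cannot be told apart from its own where the counting did not use strand.

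The 3′ UTRs of the mRNAs were searched for a sequence with a role in oocytes. The cytoplasmic polyadenylation element (CPE), searched as TTTTAT or TTTTAAT on the sense strand, is bound by CPEB, which regulates the translation of stored mRNAs during meiosis. It was found in the 3′ UTRs of *Bub1b*, *Mad2l1* and *Ttk* and not in those of the transcripts *Bub1*-201, *Bub3*-201 and *Mad1l1*-201 (121, 1004 and 427 bases). Of 18953 coding transcripts, 1 per gene, 52.2% held it in the 3′ UTR, and 25.4% held it within the last 200 bases. A match in the 3′ UTR is thus common among all genes and does not set the checkpoint genes apart. The match nearest to the transcript's end is shown for the main coding transcripts of these genes, from GENCODE M21 (GRCm38), with the element in capitals.
Bub1b-201: ttcactgtgtaTTTTATaataaaatagt
Mad2l1-201: aagaactcttaTTTTAATgtttt
Mad2l1-202: tgagaactataTTTTATaagaggctaaa
Ttk-201: ttgtgcttttcTTTTATgcttttctgta
The element began 27 bases before the end of *Bub1b*-201, 12 before that of *Mad2l1*-201 and 105 before that of *Ttk*-201. *Mad2l1*-202 has a 3′ UTR of 6802 bases with 12 matches, the last of them 487 bases from its end, against 1048 bases with 1 match in *Mad2l1*-201. A match is a description of the sequence, and whether the element acts in these oocytes was not measured.

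The checkpoint genes were among the more abundant mRNAs of the oocyte. Between 84.9% (*Mad1l1*) and 99.3% (*Bub1b*) of 23225 genes tested had a lower mean CPM. Together the 6 genes made up 2275 ± 129 CPM (SD over 21 libraries, 2014 to 2549). The group mean of this sum was highest in wt/fl (2396 CPM) and lowest with Gdf9-Cre (2140.3 CPM).

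Levels of different genes were compared per length. By the authors' TPM (counts per exon length, with a common total in each library), *Bub1b* was the highest at 435 ± 65.4, followed by *Mad2l1* at 202 ± 11.7 and *Bub3* at 126 ± 10.1 (mean ± SD over 21 libraries). *Ttk* at 117 ± 16.2, *Bub1* at 86.0 ± 15.7 and *Mad1l1* at 34.8 ± 6.59 TPM were lower. The pairs tested next are neighbours in this order, which was taken from the same 21 libraries. Their p-values measure how constant a ratio was between libraries, for the gene lengths behind the TPM. In a sign-flip permutation test within libraries (two-sided, 5 neighbouring pairs, Benjamini-Hochberg adjusted), *Bub1b* was 2.14-fold above *Mad2l1* in 21 of 21 libraries, *Mad2l1* 1.61-fold above *Bub3* in 21, and *Bub1* 2.47-fold above *Mad1l1* in 21 (adjusted permutation p = 1.7e-05 for each, from the smallest p that the resamples can give). *Ttk* was 1.37-fold above *Bub1* in 20 of 21 libraries (adjusted p = 2.5e-05). *Bub3* and *Ttk* were the closest neighbours, 1.08-fold apart in 18 of 21 libraries (adjusted p = 0.0062). With libraries of 1 name prefix averaged, this last pair no longer differed beyond its spread (adjusted p = 0.096).

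The place of *Mad2l1* depended on the length. The deposited TPM followed the length of all annotated exons of a gene, which is 8390 bp for *Mad2l1* and 7006 bp for *Bub3*, 4.86 and 3.16 times their transcripts *Mad2l1*-201 and *Bub3*-201 of 1725 and 2218 bp. For *Bub1b*, 4275 bp stood against a transcript of 3668 bp. Per kilobase of each gene's first-named coding transcript, a choice made after the data were seen, *Mad2l1* was the highest at 406 ± 26.3 CPM, above *Bub1b* at 209 ± 28.5 in all 21 libraries (log2 ratio of *Bub1b* to *Mad2l1* -0.96). *Bub3* followed at 164 ± 11.5, *Ttk* at 82.5 ± 10.1, *Bub1* at 45.2 ± 7.54 and *Mad1l1* at 19.8 ± 3.41. The share of long and short *Mad2l1* transcripts cannot be read from these gene counts.

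**Figure D1:**
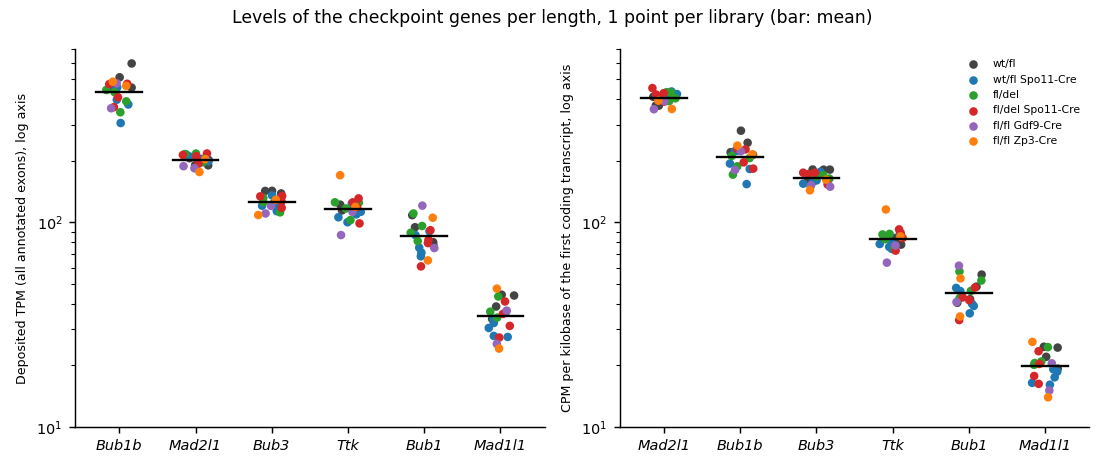
Levels of the 6 genes per length on a log axis, as the deposited TPM (left) and as CPM per kilobase of the first-named coding transcript (right), with 1 point per library coloured by group and a bar at the mean of 21 libraries. *Bub1b* leads on the left (435 TPM) and *Mad2l1* on the right (406 CPM per kilobase), while *Mad1l1* is lowest on both.

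Ratios of partners within the pathway are given as a description. The TPM of *Bub1b* was 5.18 ± 1.05 times that of *Bub1*, its paralogue, over 21 libraries, with group means between 4.33 and 5.94. *Mad2l1* stood at 5.99 ± 1.16 times *Mad1l1*, the partner that recruits it to kinetochores, with group means from 4.98 in wt/fl to 6.88 in wt/fl Spo11-Cre. This ratio depends on the length used, since per kilobase of the first-named coding transcript *Mad2l1* had 406 CPM and *Mad1l1* 19.8. *Bub1b* was 2.22 ± 0.287 times *Cdc20*, the APC/C activator that the checkpoint complex captures. The ratio to *Cdc20* also rests on the lengths behind the TPM, and it was not computed per kilobase of transcript.

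Differences of the checkpoint genes between the groups were tested with edgeR's quasi-likelihood test, fitted over all genes with p-values adjusted by the Benjamini-Hochberg method. Each comparison against wt/fl uses the same 4 control libraries, so these results share their controls. All p-values below are adjusted ones unless named as unadjusted. Over 11 comparisons, 0 of 66 tests of a checkpoint gene passed an adjusted p of 0.05, and 16 had an unadjusted p under 0.05. Over all genes, between 0.0223% and 2.9% passed per comparison, and between 7.11% and 15% had an unadjusted p under 0.05. The 66 tests share libraries and are not independent, so their counts are a description. The lowest adjusted p of the 66 was 0.081. In the 10 comparisons of groups, the 95% intervals of the fold changes lay between 0.576 and 1.53, and a p that misses the threshold does not show that levels were equal. The biological coefficient of variation of the 6 genes was at most 15.8% (*Mad1l1*), where the 5th percentile of all genes tested was 12.5%.

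**Figure D2:**
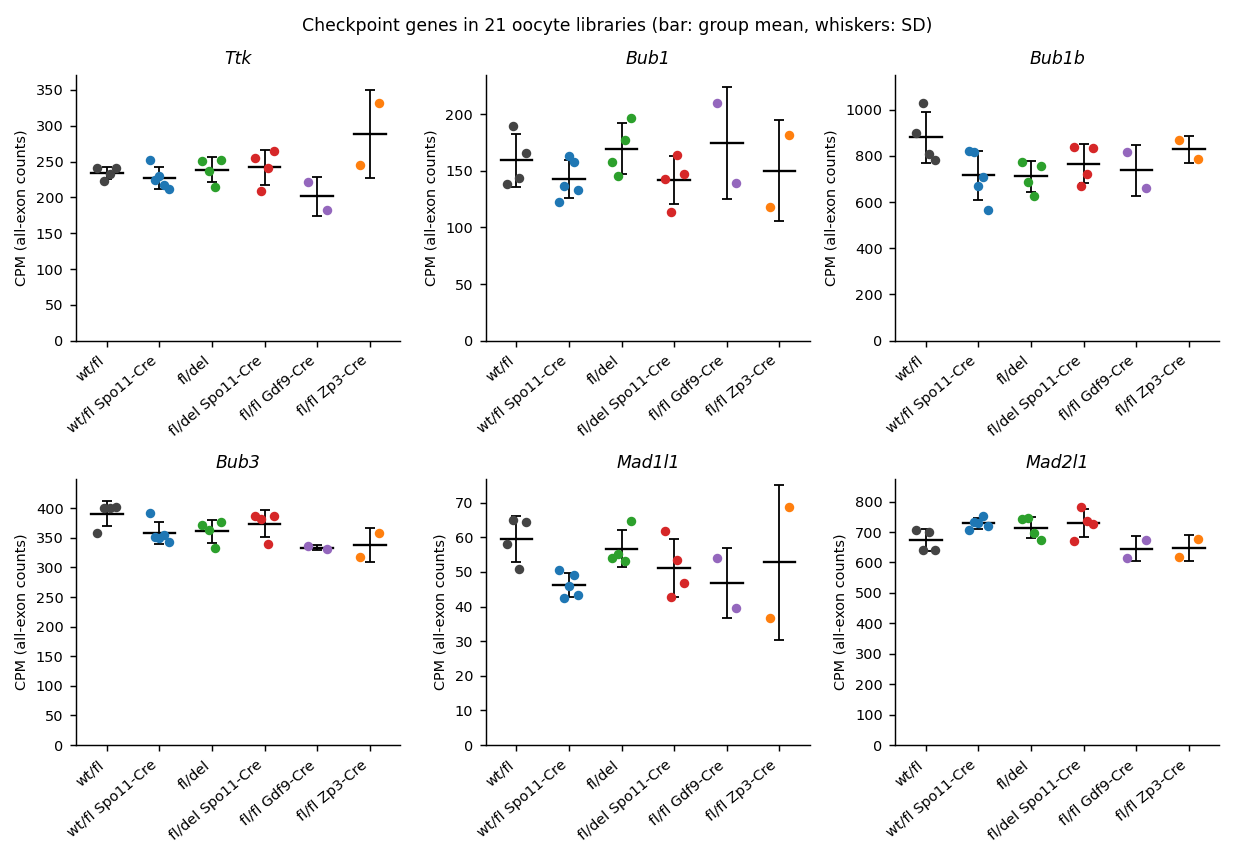
CPM of each checkpoint gene in each of the 21 libraries by group, with the group mean (bar) and SD (whiskers), on linear axes from 0. The means of *Bub1b* and *Mad1l1* are lower in wt/fl Spo11-Cre than in wt/fl, with ranges that overlap for *Bub1b* and not for *Mad1l1*, and the 2 Zp3-Cre libraries lie far apart for *Ttk*, *Bub1* and *Mad1l1*.

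*Bub1b* encodes BUBR1, a subunit of the checkpoint complex that also protects kinetochore attachments. It had 898, 1028, 807 and 784 CPM in the wt/fl libraries. It had 819, 815, 668, 709.8 and 564 CPM in wt/fl Spo11-Cre, and 774, 688, 627 and 755 CPM in fl/del. The 4 fl/del libraries lay below the wt/fl libraries, though not on TMM-scaled library sizes, and 3 of the 5 wt/fl Spo11-Cre libraries did. In fl/del Spo11-Cre it had 839.7, 671, 719.6 and 833 CPM, which overlapped wt/fl.

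Against wt/fl, *Bub1b* differed by a log2 fold change of -0.28 ± 0.09 (SE) in wt/fl Spo11-Cre (0.826-fold, edgeR adjusted p = 0.081), -0.29 ± 0.09 in fl/del (adjusted p = 0.38) and -0.20 ± 0.09 in fl/del Spo11-Cre (adjusted p = 0.44). None of these passed the threshold. The first had the lowest adjusted p of the 66 tests. It passed without replicate 1 or replicate 2 of wt/fl Spo11-Cre (edgeR adjusted p = 0.038 and 0.0495), without a filter on low counts (0.029) and with the counts made with exon 22 (0.0498). Over its 26 alternative fits the log2 fold change ran from -0.33 to -0.19 and the adjusted p from 0.029 to 0.40, the last without wt/fl replicate 2, the library with the most *Bub1b*.

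*Bub3* encodes the partner that brings BUB1 and BUBR1 to kinetochores. It had 359, 401, 401 and 402 CPM in wt/fl, so a single library stood below the other 3. Spo11-Cre oocytes had 342 to 392 CPM on wt/fl and 339 to 388 CPM on fl/del, and fl/del oocytes without Cre had 333 to 377 CPM. All these ranges overlapped that of wt/fl. Its log2 fold changes against wt/fl were -0.10 ± 0.08 with Spo11-Cre on wt/fl, -0.10 ± 0.08 for fl/del alone and -0.07 ± 0.08 with both, with edgeR adjusted p of 0.60, 0.78 and 0.86.

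*Ttk* encodes the kinase at the top of the pathway. Without Cre it had 223 to 241 CPM in wt/fl oocytes and 214 to 252 CPM in fl/del oocytes. With Spo11-Cre it had 212 to 252 CPM on wt/fl and 209 to 265 CPM on fl/del. The ranges overlapped, and log2 fold changes against wt/fl were -0.02 ± 0.08 with Spo11-Cre on wt/fl, 0.04 ± 0.09 for fl/del alone and 0.04 ± 0.09 with both (edgeR adjusted p from 0.94 to 0.96). The 95% intervals of these folds ran from 0.875 to 1.17.

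*Bub1* encodes a kinase that marks centromeric chromatin for shugoshin. It had 138, 189.8, 144 and 166 CPM in wt/fl, and 123, 137, 163, 158 and 133 CPM in wt/fl Spo11-Cre. The fl/del oocytes had 158, 145, 178 and 197 CPM without Cre, and 142, 114, 164 and 147 CPM with Spo11-Cre. The highest group mean in these 17 libraries was that of fl/del, 169 ± 22.4 CPM (SD, n = 4), and its range overlapped those of the other 3 groups. The log2 fold change of fl/del oocytes with Spo11-Cre against those without was -0.27 ± 0.11 (edgeR adjusted p = 0.53, unadjusted p under 0.05).

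*Mad1l1* encodes MAD1, the kinetochore receptor of MAD2, and was the lowest of the 6 genes. It had 58.0, 65.0, 50.8 and 64.4 CPM in wt/fl. With Spo11-Cre on the same alleles it had 50.4, 42.4, 46.1, 49.1 and 43.3 CPM, all below the wt/fl libraries. The fl/del oocytes had 54.1, 55.0, 53.0 and 64.7 CPM without Cre, and 61.8, 42.8, 53.6 and 46.7 CPM with Spo11-Cre, and both ranges overlapped that of wt/fl.

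The log2 fold change of *Mad1l1* in wt/fl Spo11-Cre was -0.34 ± 0.12 (0.789-fold, 95% interval 0.669 to 0.932, edgeR adjusted p = 0.13). DESeq2 gave an adjusted p of 0.038 for the same difference, and the other fits gave up to 0.34. Against wt/fl it was -0.05 ± 0.13 for fl/del alone, and with Spo11-Cre on fl/del -0.22 ± 0.13 (edgeR adjusted p = 0.97 and 0.55).

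*Mad2l1* encodes MAD2, the checkpoint protein that binds CDC20. Its coefficient of variation over the 21 libraries was 6.49%, next to 7.02% for *Bub3*, and in wt/fl alone it was 5.36%, above the 3.63% of *Ttk*. It had a mean of 673 ± 36.0 CPM (SD, n = 4) in wt/fl and 715 ± 35.2 CPM (n = 4) in fl/del oocytes without Cre. With Spo11-Cre the means were 728 ± 16.6 CPM on wt/fl (n = 5) and 729 ± 45.7 CPM on fl/del (n = 4). Its log2 fold changes against wt/fl were 0.14 ± 0.07 with Spo11-Cre on wt/fl, 0.11 ± 0.08 for fl/del alone and 0.11 ± 0.08 with both (edgeR adjusted p of 0.37, 0.72 and 0.65). It was the one checkpoint gene with a positive estimate in wt/fl Spo11-Cre, where the ranges overlapped by 1 library of each group. The follicle cell markers of these groups summed to 84.6 to 128 CPM in wt/fl and 73.6 to 103 CPM with Spo11-Cre. Most of each sum came from *Cyp19a1* and *Nr5a2*, with medians of 66.3 and 27.7 CPM over 21 libraries. Every other marker had a median of at most 3.36 CPM, so the sums mostly follow these genes and are a poor measure of follicle cells. The part of the markers in the differences was not tested.

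The calls of these comparisons are read against the whole table. In wt/fl Spo11-Cre against wt/fl, edgeR called 2.19% of 22383 genes and 0 of the 6 checkpoint genes. Unadjusted p was under 0.05 for 2 of the 6 (*Bub1b* and *Mad1l1*) and 15% of all genes, and DESeq2 called *Mad1l1* and 4.16% of all genes. DESeq2 gave no adjusted p to 13019 of the 22383 genes here. Its shares, here and below, count such genes as not called, so they are lower than among genes with an adjusted p. Groups did not overlap for 1 of 6 (*Mad1l1*) and 4.95% of all genes. In fl/del against wt/fl, edgeR called 0.0223% of all genes and 0 of 6, with 1 of 6 (*Bub1b*) and 8.52% of all genes under an unadjusted p of 0.05, and DESeq2 called 0.112% and 0 of 6. Groups did not overlap for 1 of 6 (*Bub1b*) and 2.99% of all genes. In fl/del Spo11-Cre against wt/fl, the shares were 0.197% of all genes and 0 of 6 by edgeR, 10.4% and 1 of 6 (*Bub1b*) unadjusted, and 0.742% and 0 of 6 by DESeq2, and 4.18% and 0 of 6 did not overlap.

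The groups with Cre or with the del allele were also compared with each other. In fl/del Spo11-Cre against wt/fl Spo11-Cre, edgeR called 0.0357% of all genes and 0 of 6, and no checkpoint gene had an unadjusted p under 0.05 (7.11% of all genes did), was called by DESeq2 (0.0625%) or was without overlap (1.85%). Here the log2 fold changes lay between -0.04 and 0.12, with 95% intervals of the folds from 0.844 to 1.28. The log2 fold change of *Kif11* between the same libraries was -3.82 ± 0.25. With Spo11-Cre against without on fl/del, edgeR called 0.241% of all genes and 0 of 6. Here 1 of 6 (*Bub1*) and 8.32% of all genes had an unadjusted p under 0.05, DESeq2 called 0 of 6 and 0.402%, and 0 of 6 and 3.65% were without overlap.

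In fl/del against wt/fl Spo11-Cre, edgeR called 0.201% of all genes and 0 of 6, and DESeq2 0.415% and 0 of 6. *Bub1* (0.24 ± 0.10) and *Mad1l1* (0.29 ± 0.12) had an unadjusted p under 0.05, as did 9.24% of all genes, and edgeR adjusted p of 0.49 and 0.48. *Mad1l1* did not overlap between these groups, with 53.0 to 64.7 CPM against 42.4 to 50.4, as for 2.84% of all genes.

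Whether the difference with Spo11-Cre itself differed between the wt/fl and fl/del backgrounds was tested as an interaction. edgeR called 0.103% of all genes and 0 of 6, and DESeq2 called 0.424% and 0 of 6. The estimate for *Bub1b* was 0.36 ± 0.13 on the log2 scale (edgeR adjusted p = 0.28), the sole checkpoint gene with an unadjusted p under 0.05, against 10.3% of all genes. The log2 fold change of *Bub1b* with Spo11-Cre was -0.28 ± 0.09 on wt/fl and 0.09 ± 0.09 on fl/del.

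**Figure D3:**
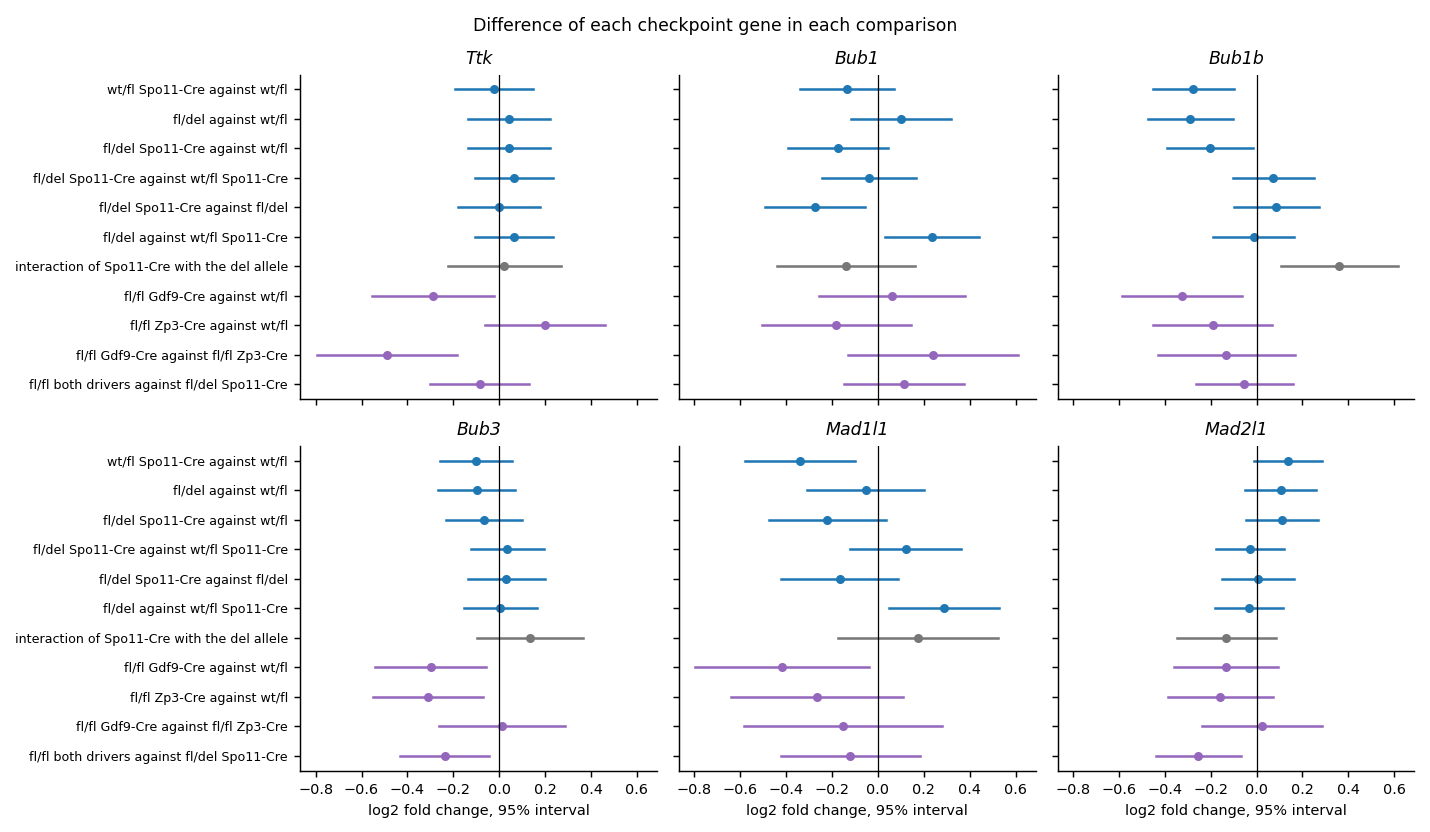
Log2 fold change of each checkpoint gene (point) with its 95% interval (line) from edgeR, in 6 comparisons among the Spo11-Cre background groups (blue), the interaction (grey) and 4 comparisons with fl/fl groups (purple). Most lines cross 0, and 0 of the 66 tests passed an adjusted p of 0.05.

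With the drivers Gdf9-Cre and Zp3-Cre, each group held 2 libraries. Their TMM factors, 1.03 to 1.10, were above the 0.960 to 1.02 of the other groups, so their CPM is lower on that scale. *Ttk* had 221 and 182 CPM with Gdf9-Cre, below the 4 wt/fl libraries. It had 245 and 332 CPM with Zp3-Cre, above them, though not on TMM-scaled sizes. The log2 fold change between the drivers was -0.49 ± 0.15 (0.712-fold, 95% interval 0.576 to 0.880, edgeR adjusted p = 0.14). DESeq2 called it (adjusted p = 0.021), and so did edgeR without Zp3-Cre replicate 1 (log2 fold change -0.73, adjusted p = 0.011), which leaves the higher library alone in its group. Wherever a library of a driver is left out, the 1 that remains is assumed to vary like the other groups. The other fits gave up to 0.998, with the compared groups alone.

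*Bub3* had 337 and 331 CPM with Gdf9-Cre and 318 and 358 CPM with Zp3-Cre, below each wt/fl library. The differences were -0.30 ± 0.12 and -0.31 ± 0.12 on the log2 scale (edgeR adjusted p = 0.27 and 0.20), and DESeq2 called both (adjusted p = 0.035 and 0.028), while the other fits gave up to 0.69 and 0.86. *Bub3* was also 0.849-fold in the mean of both drivers against fl/del Spo11-Cre (edgeR adjusted p = 0.22, DESeq2 0.043).

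*Mad2l1* had 616 and 675 CPM with Gdf9-Cre and 617 and 678 CPM with Zp3-Cre. Its log2 fold change for both drivers against fl/del Spo11-Cre was -0.25 ± 0.09 (edgeR adjusted p = 0.14, DESeq2 0.021). Without Zp3-Cre replicate 2 the edgeR adjusted p was 0.038, and the other fits gave up to 0.43.

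*Bub1*, *Bub1b* and *Mad1l1* differed between the libraries of a driver. *Bub1* had 209.8 and 139 CPM with Gdf9-Cre and 118 and 182 CPM with Zp3-Cre. *Mad1l1* had 53.9 and 39.7 CPM with Gdf9-Cre and 36.8 and 68.6 CPM with Zp3-Cre, so the Zp3-Cre libraries were the lowest and the highest of all 21. *Bub1b* had 816 and 660.3 CPM with Gdf9-Cre and 869 and 788 CPM with Zp3-Cre, and its log2 fold changes against wt/fl were -0.32 ± 0.13 and -0.19 ± 0.13 (edgeR adjusted p = 0.27 and 0.57). *Mad1l1* passed the edgeR threshold in Zp3-Cre against wt/fl without Zp3-Cre replicate 2 (log2 fold change -0.84, adjusted p = 0.015), and its estimate was 0.15 without replicate 1, each with 1 library left in the group and the spread taken from the other groups.

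In Gdf9-Cre against wt/fl, edgeR called 1.48% of 23225 genes and 0 of 6 checkpoint genes, with 4 of 6 and 11.7% of all genes under an unadjusted p of 0.05, while DESeq2 called 3.13% and 1 of 6. In Zp3-Cre against wt/fl, it called 2.27% and 0 of 6, with 1 of 6 and 13.1% unadjusted, and DESeq2 called 3.84% and 1 of 6. Between the drivers, edgeR called 0.891% and 0 of 6, with 1 of 6 and 7.14% unadjusted, and DESeq2 called 1.64% and 1 of 6. For both drivers against fl/del Spo11-Cre, edgeR called 2.9% and 0 of 6, with 2 of 6 and 14% unadjusted, and DESeq2 called 4.59% and 2 of 6. DESeq2 gave no adjusted p to 11707 of the 23225 genes here, and to 13508 in each of the comparisons before it. Groups without overlap in CPM were 2 of 6 checkpoint genes in each comparison with wt/fl (18% and 16.8% of all genes) and 1 of 6 between the drivers (27.7%), and 0 of 6 for both drivers against fl/del Spo11-Cre (6.35%). On TMM-scaled sizes, *Bub1b* and *Mad1l1* with Gdf9-Cre and *Bub1b* with Zp3-Cre also lay below wt/fl without overlap. On that scale *Mad2l1* with both drivers lay below fl/del Spo11-Cre. The share of all genes without overlap was not computed on that scale. The drivers, the alleles and the set of libraries cannot be told apart in the comparisons of fl/fl with the other groups.

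Pairs of checkpoint genes were compared within groups by Pearson's r of log2 levels over the 21 libraries, after subtraction of group means. The median r of the 15 pairs was 0.27. The highest was *Mad1l1* with *Ttk* (r = 0.77), then *Bub1* with *Mad1l1* (r = 0.74) and *Bub3* with *Ttk* (r = 0.61). *Mad2l1* had r between -0.35 (*Bub1b*) and 0.16 (*Bub3*). The Zp3-Cre libraries lay far apart, in the same direction, for *Mad1l1* (33.3 and 66.4 TMM-scaled CPM), *Ttk* (222 and 321) and *Bub1* (107 and 176). They weigh heavily in the r of these genes, which was not computed without them. These values are a description, since the points share libraries, depth and scaling.

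**Figure D4:**
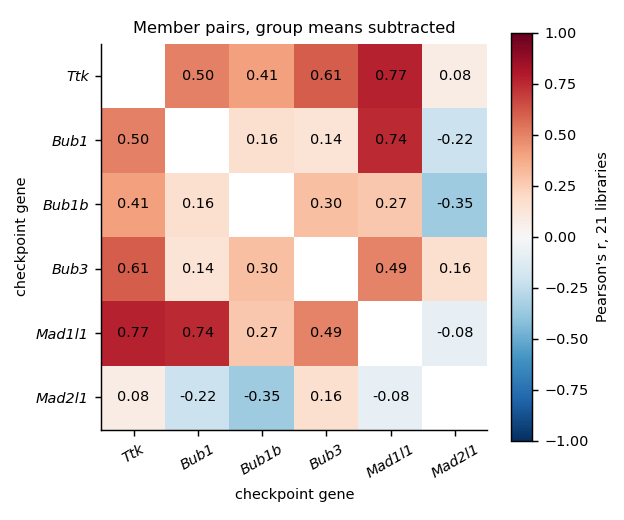
Pearson's r of log2 TMM-scaled CPM between pairs of checkpoint genes over 21 libraries after subtracting group means, from -1 (blue) to 1 (red). *Mad1l1*, *Ttk* and *Bub1* have the highest values, up to 0.77, and *Mad2l1* has values near or below 0 with most of the others.

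Among 7755 genes with a mean of at least 10 CPM, the genes most alike to *Ttk* by the same measure were *Tex10* (r = 0.94) and *Fbxo30* (0.92), and *Rnf4* (0.93) was among those most alike to *Mad1l1*. For *Bub1* they were *Fbxl5* and *Actg1* (0.88 each), and for *Bub1b* *Samhd1* and *Zkscan6* (0.88 each). *Mad2l1* was nearest to *A930031H19Rik* (0.87) and *Ssb* (0.85), and *Bub3* to *Tufm* (0.79) and *Cndp1* (0.78). An absolute r of at least 0.5 was common, for between 10.8% (*Bub3*) and 28.4% (*Mad1l1*) of these genes.

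Genes around the checkpoint were read from lists of 10 checkpoint partners, 18 subunits and activators of the APC/C, and 4 genes of shugoshins and haspin. In wt/fl Spo11-Cre against wt/fl, 4 of the 18 APC/C genes fell and 0 rose, while 0 of the 10 partners and 0 of the 4 shugoshin and haspin genes passed the test (2.19% of all genes did). The median log2 fold change was -0.07 over the APC/C list, against 0.03 over all genes. *Cdc20*, the activator bound by the checkpoint complex, had 177, 211, 156 and 165 CPM in wt/fl and 129.7, 125, 135, 150.4 and 128 CPM in wt/fl Spo11-Cre, without overlap. Its log2 fold change was -0.38 ± 0.10 (edgeR adjusted p = 0.021).

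*Fzr1* (CDH1), the other APC/C activator, which keeps prophase oocytes arrested, fell from 122 ± 20.3 CPM (SD, n = 4) to 82.9 ± 12.1 (n = 5), a log2 fold change of -0.54 ± 0.12 (edgeR adjusted p = 0.0062). The subunits *Anapc2* (-0.58 ± 0.16, adjusted p = 0.034) and *Anapc5* (-0.37 ± 0.11, adjusted p = 0.047) also fell. The call of *Cdc20* was lost without wt/fl replicate 2 (adjusted p = 0.197) or wt/fl Spo11-Cre replicate 2 (0.059) and in a fit of all 21 libraries (0.069), and that of *Fzr1* without wt/fl replicate 2 (0.073). The calls of *Anapc2* and *Anapc5* were lost in 8 and 13 of 26 alternative fits (adjusted p up to 0.13 and 0.30), and each was lost without any 1 of 7 of the 9 libraries compared.

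In the other comparisons of the Spo11-Cre background, 0 of the 10, 0 of the 18 and 0 of the 4 listed genes passed the edgeR test. Between 0.0223% and 0.241% of all genes passed there, so counts of 0 are near the background. *Cdc20* had log2 fold changes against wt/fl of -0.29 ± 0.10 for fl/del alone and -0.11 ± 0.10 with Spo11-Cre on fl/del (edgeR adjusted p = 0.50 and 0.77). Its interaction estimate was 0.56 ± 0.14 (edgeR adjusted p = 0.097).

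Against wt/fl, 2 of the 18 APC/C genes fell with Gdf9-Cre, where 1.48% of all genes were called in either direction, and 2 of the 18 with Zp3-Cre (2.27%). *Ube2s*, the E2 enzyme that extends ubiquitin chains with the APC/C, fell against wt/fl with Gdf9-Cre (-0.81 ± 0.14, edgeR adjusted p = 1e-04) and with Zp3-Cre (-0.54 ± 0.13, adjusted p = 0.014), the latter lost in 5 of 29 alternative fits (up to 0.12), among them those without wt/fl replicate 4 or either Zp3-Cre library. It had 236 and 202 CPM with Gdf9-Cre and 289 and 252 CPM with Zp3-Cre, against 302 to 440.4 in wt/fl. *Anapc5* fell with Gdf9-Cre (-0.58 ± 0.16, adjusted p = 0.047), a call lost in 18 of 29 alternative fits (adjusted p = 0.79 without Gdf9-Cre replicate 2).

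Low levels with Zp3-Cre were seen for *Cdc27*, an APC/C subunit, and *Knl1*, the kinetochore scaffold that TTK phosphorylates to recruit BUB proteins. *Knl1* was the 1 of the 10 partners called against wt/fl, where 2.27% of all genes were called. Between the drivers, 1 of the 10 partners and 1 of the 18 APC/C genes were called, against 0.891% of all genes. *Cdc27* had 194 and 195 CPM with Zp3-Cre, and no library of another group had less than 243. Such non-overlap is common with few libraries, at 16.8% of all genes for Zp3-Cre against wt/fl and 27.7% between the drivers. The log2 fold change of *Cdc27* was -0.98 ± 0.14 against wt/fl (edgeR adjusted p = 1.6e-06), and 0.95 ± 0.15 for Gdf9-Cre against Zp3-Cre (adjusted p = 7e-05). *Knl1* had 37.7 and 31.5 CPM with Zp3-Cre and 74.6 and 60.2 CPM with Gdf9-Cre, with log2 fold changes of -0.92 ± 0.17 against wt/fl (adjusted p = 0.00052) and 1.00 ± 0.19 between the drivers (adjusted p = 0.0015). In a fit of the compared groups alone, the differences between the drivers did not pass (adjusted p = 0.29 for *Cdc27* and 0.41 for *Knl1*), and *Knl1* did not pass without Gdf9-Cre replicate 1 (0.054).

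For both drivers against fl/del Spo11-Cre, 1 of the 10 partners and 3 of the 18 APC/C genes fell, and 0 of the 4 shugoshin and haspin genes passed, where 2.9% of all genes were called in either direction. Those that fell were *Mad2l1bp* (p31comet), which takes MAD2 off the checkpoint complex (-0.60 ± 0.16, edgeR adjusted p = 0.015), *Ube2s* (-0.72 ± 0.11, adjusted p = 5.2e-06), *Anapc11* (-0.50 ± 0.11, adjusted p = 0.0044) and *Cdc27* (-0.39 ± 0.11, adjusted p = 0.026). For *Cdc27* the Gdf9-Cre libraries, with 385 and 347 CPM, lay above the 320.1 to 343 CPM of fl/del Spo11-Cre, and the call was lost in 8 of 29 alternative fits (up to 0.13). The call of *Mad2l1bp* was lost without fl/del Spo11-Cre replicate 2 (adjusted p = 0.10) or Gdf9-Cre replicate 2 (0.067).

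**Figure D5:**
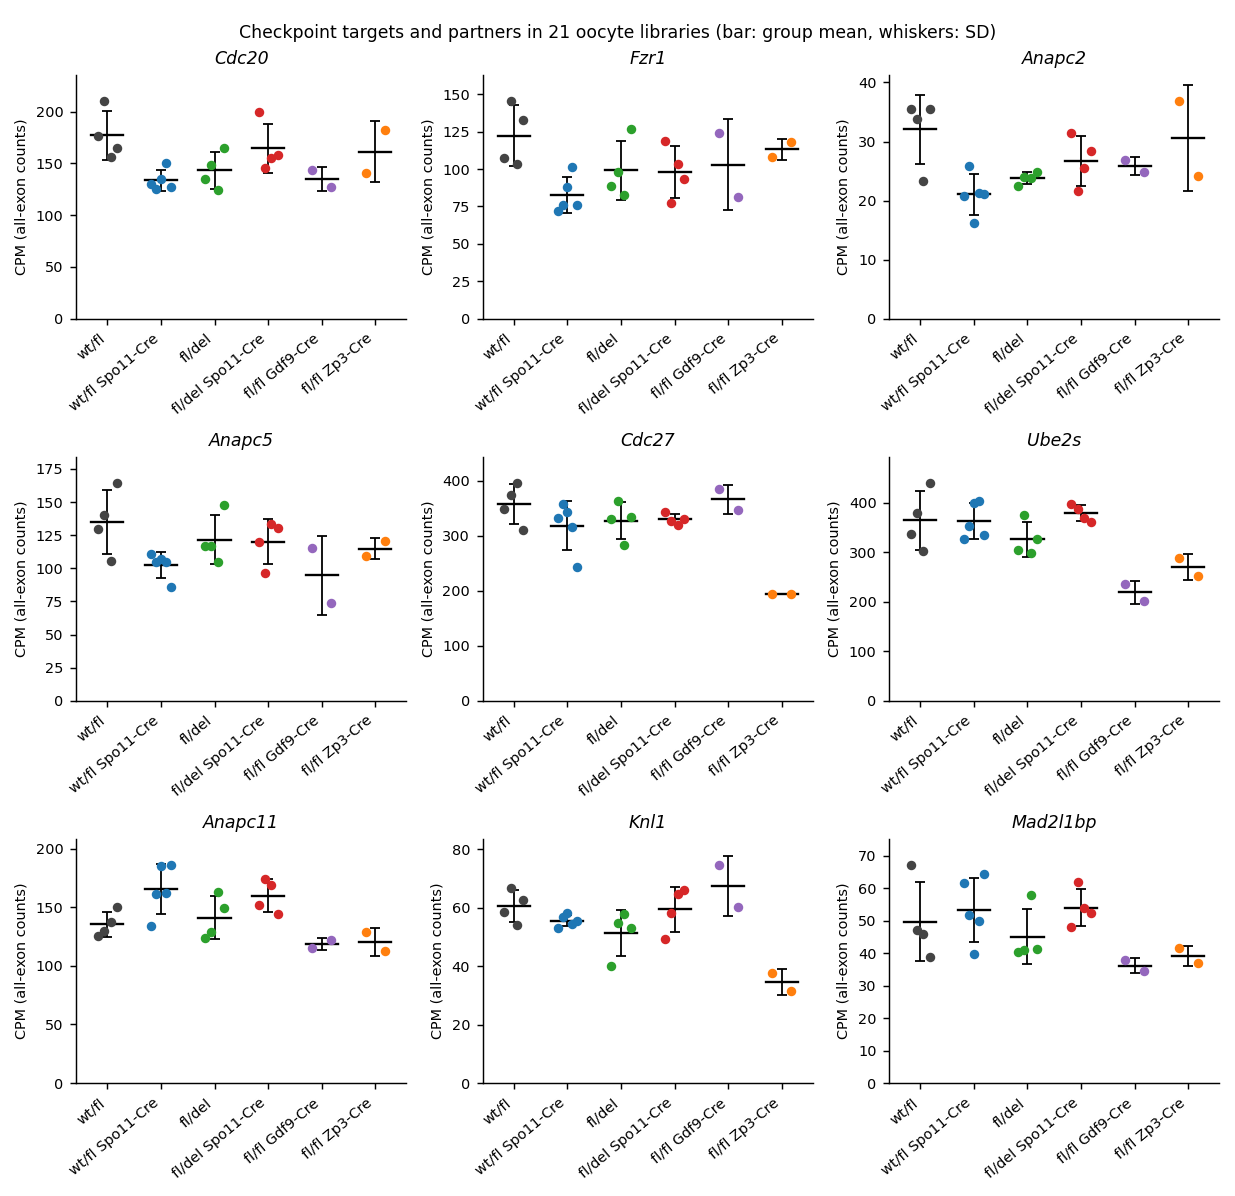
CPM by library and group of the 9 listed genes that passed an adjusted p of 0.05 in at least 1 comparison, with the group mean (bar) and SD (whiskers). *Cdc20* and *Fzr1* are lower in wt/fl Spo11-Cre than in wt/fl, *Ube2s* is lower in the fl/fl groups, and *Cdc27* (194 and 195 CPM) and *Knl1* are lowest with Zp3-Cre.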

How the data were processed

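Poly(A) RNA of 21 libraries of 3 oocytes each was amplified as full-length cDNA and sequenced by the authors, per the protocol that the labels give for each. Per the labels and methods, fastp was used for trimming, HISAT2 2.2.1 for alignment to GRCm38, and featureCounts 2.0.3 (Subread) for counting unique alignments in genes of Ensembl release 93. The deposited counts are whole numbers without normalization, and the authors also deposited TPM values of these counts, by a method not given in the sources used here. Counts over all exons were the main values. For the 6 genes they were 1.79 to 1.99 times (median 1.97) those in the table made with exon 22 of *Kif11* alone, and whether mates were counted apart is not stated. Groups were taken from the labelled genotype.

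CPM was the count scaled to the library total. edgeR 4.0.16 in R 4.3.3 (TMM sizes, glmQLFit and glmQLFTest) was fitted on genes with a count in at least 3 libraries, over the 17 libraries of the Spo11-Cre background, or over 21 for comparisons with fl/fl groups. P-values were adjusted over all genes tested, with a threshold of 0.05. DESeq2 1.42.0 was an alternative. In the Spo11-Cre background it gave no adjusted p to between 3056 and 16490 of 22383 genes, depending on the comparison. Such genes count as not called in its shares. Neighbouring TPM levels (pseudocount 0.1) were compared by sign flips with 100000 resamples. Genes most alike were found by Pearson's r of log2 TMM-scaled CPM (prior count 2), and 1 of them is not reported here. The code was tested on simulated data. Levels and figures were made in Python 3.11.15 (pandas 2.3.3, numpy 2.4.6, matplotlib 3.10.9, scipy 1.17.1).

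The text names the 6 genes, *Kif11*, *Cdc20*, and listed genes past the threshold, at most 4 per list and comparison. The members and lists were chosen with earlier results of these data known. Alternatives were RLE factors, DESeq2, filterByExpr or no filter in place of the count filter, fits of the compared groups or of all 21 libraries, the exon 22 counts, libraries summed by name prefix, a replicate block, each library left out, TPM with a pseudocount of 1, and a transcript length chosen after the data were seen. Tables made with exon 1 of *Kif11* were not used. No pair of libraries of a group agreed within sampling noise (chi-square per degree of freedom of at least 5.91), a check that takes amplified reads as independent and so covers counting error only.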

Additional observations from a re-analysis of the deposited data

Results flagged for a closer look

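In 60 groups of 4 or 5 libraries tested (6 checkpoint genes and 9 listed genes), 6 held a library far from the others by Dixon's gap, which chance gives in about 1 in 20 groups. For *Bub3*, wt/fl replicate 1 was low at 359 CPM against a median of 401, wt/fl Spo11-Cre replicate 1 was high at 392 against a median of 352, and fl/del Spo11-Cre replicate 3 was low at 339 against a median of 385. *Mad2l1bp* was high in fl/del replicate 3 (57.7 CPM), the library of lowest depth. *Anapc2* was low in wt/fl replicate 3 (23.3 CPM), and *Anapc5* was low in wt/fl Spo11-Cre replicate 5 (85.8 CPM).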

How the results depend on the processing

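The count of 0 called checkpoint genes held in 284 pairings of a comparison with an alternative setting and moved in 13. A fit can cover several comparisons, and many of these pairings differ from the main fit by 1 library left out. DESeq2 called 1 in each of wt/fl Spo11-Cre, Gdf9-Cre and Zp3-Cre against wt/fl, 1 between the drivers and 2 for both drivers against fl/del Spo11-Cre. For Spo11-Cre on wt/fl, 1 was called without the filter on low counts (2.71% of all genes) and 1 with the counts made with exon 22 (2.59%). Leaving out a library gave 0 to 1 called in wt/fl Spo11-Cre against wt/fl, in Zp3-Cre against wt/fl, between the drivers and for both drivers against fl/del Spo11-Cre. With the replicate number as a block, 1 was called in fl/del against wt/fl (*Bub1b*, -0.29, edgeR adjusted p = 0.040). That fit called 0.429% of all genes there, against 0.0223% in the main fit. Libraries of the same number did not vary together (median r between -0.02 and 0.06), so the number does not pair them. The block changed no other call of a checkpoint gene. Among the other named genes it ended the call of *Anapc5* in wt/fl Spo11-Cre against wt/fl (-0.31, edgeR adjusted p = 0.094). Estimates took both signs when a library was left out for *Bub1* in Gdf9-Cre against wt/fl (-0.25 without Gdf9-Cre replicate 1 to 0.33), and in Zp3-Cre against wt/fl for *Bub1* (-0.57 to 0.14 without Zp3-Cre replicate 1), *Mad1l1* (-0.84 to 0.15 without replicate 1) and *Ttk* (-0.081 without replicate 2 to 0.45). In the order of levels, *Bub3* above *Ttk* was lost with 1 mean per name prefix (log2 ratio 0.10), and *Bub1b* above *Mad2l1* reversed per length of the first-named coding transcript (-0.96), a scale chosen after the data were seen, since the lengths differ. On TMM library sizes, *Bub3* with Gdf9-Cre had a mean of 319.6 CPM in place of 334, beyond its SD. Where a setting changed a call, the cause was not tested unless named. Groups of 2 libraries limit the fl/fl results.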

Other observations

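Promoters of the checkpoint genes (windows of 300 bases around each start, from RefSeq on GRCm38.p6) were searched on both strands for elements of cell cycle genes. TTTGAA, the core of the cell cycle homology region, was found in promoters of *Bub1b*, *Bub3* and *Ttk*, and in 17.9% of 32851 promoters. TTTAAA was found in none of the 6 genes' promoters and in 13.2% of all. CCAAT, which NF-Y binds, was found in promoters of *Bub1*, *Bub1b*, *Bub3* and *Ttk*, and in 37.4% of all. A match is a description of the sequence.

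Libraries whose names share a prefix, which may mark a mouse, are given as a description. Over the checkpoint genes, the median absolute log2 difference was 0.15 within 8 such pairs and 0.14 within 20 pairs of the same group with other prefixes.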
